A study of Mus musculus with 92 samples.

Results

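Single cells that carry the state name MP were compared with those that carry the state name Mono inside 1 sort gate of mouse bone marrow, the GMP gate (in common usage, granulocyte-monocyte progenitors). Membership came from the deposited table of cell states: 5 cells were MP and 24 were Mono. Together they made up 29 of the 45 cells of that gate, in a series of 92 cells. The other cells of the gate were 3 cMoP, 5 Multi-Lin, 6 Gran-1 and 2 Gran-2. The state names are the authors' own grouping of these cells, and the labels do not spell out what MP stands for.

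Every cell of the series, MP and Mono alike, came from C57BL/6 mice homozygous for Gfi1-R412X (genotype Gfi1-R412X/R412X), an allele named for a stop in place of an arginine in the transcriptional repressor GFI1. No treatment, age or number of animals is given, and the series here held 0 wild type samples, so the allele is common to both states and no effect of it could be measured. Marrow was enriched on the stem cell factor receptor CD117, sorted, and captured as single cells on a Fluidigm C1 chip. The expression of each gene in each cell was deposited as log2(TPM + 1), where TPM is transcript abundance scaled per length of transcript and per library.

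Monocytes and neutrophils arise from shared myeloid progenitors. The transcription factors IRF8 and KLF4 are known for driving monocyte fate, while GFI1 and C/EBPε drive granulocyte fate, and GFI1 is known to repress monocytic genes, Irf8 among them. Progenitors of both arms already make the proteases and peroxidase of the primary granules and still divide.

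The design gave no replicate error. Both states came from 1 gate with no animal named, cells are not replicates, and the cells had been grouped on these same profiles. Means, differences and standard deviations (SD) below therefore describe these cells, with no test. Genes detected in 25% or more of the MP cells or of the Mono cells were compared, which kept 8553 of 23956. "Higher" and "lower" below mean a difference of mean log2(TPM + 1), MP minus Mono, of at least 1, which is 2-fold on that scale. A level of 0 can be a missed transcript, since the read depth per cell is unknown. The number of genes above 0 stands in for depth, and it was alike in both states: 4985 to 6244 in MP (median 5747) and 3700 to 6612 in Mono (median 5623.5).

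Of the genes compared, 1787 (20.9%) were higher in MP and 1124 (13.1%) were lower, and the median difference was 0.12. These shares are the background for every list below. Of the genes compared, 1391 passed the detection rule through Mono alone and 542 through MP alone, and such genes had to lean to that side. Among the 6620 that passed in both states, 23.3% were higher and 10.4% lower. They turned with the way of averaging: taken as log2 of the mean TPM, 1304 genes were higher and 2563 lower. A mean over 5 cells varies more than one over 24, and its part in these counts was not tested. In 302 genes (3.53%) all 5 MP cells lay above the Mono median, and in 238 (2.78%) all 5 lay below it. In 0 genes (0%) did the 5 MP cells and the 24 Mono cells not overlap, so no single gene divided the states.

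Of the 18 monocyte genes compared, 11 were lower in MP and 0 were higher, the factors Irf8 and Klf4 among the lower. Irf8 stood at 0, 7.38, 3.05, 2.97 and 0 in MP cells 10, 15, 24, 30 and 45, against 0, 6.65 and 8.32 (lowest, median, highest) in Mono. It was thus above 0 in 3 of 5 MP cells (60%, exact Clopper-Pearson 95% interval 14.7% to 94.7%, counting error only) and in 22 of 24 Mono cells (91.7%, 73% to 99.0%), and only MP cell 15 passed the Mono median. The difference of means was -2.81, or -3.99 without that cell. Klf4 stood at 0, 0, 0, 1.64 and 0.72 in MP, against 0, 5.82 and 8.66 in Mono. All 5 MP cells lay below the Mono median, 18 of 24 Mono cells lay above the highest MP cell, and the means differed by -4.08 (0.47 ± 0.72, SD over 5 cells, against 4.55 ± 2.99 over 24). The related factor Klf2 was lower by 2.19 and Spi1, which encodes the myeloid factor PU.1, by 1.39.

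The list of monocyte transcription factors as a whole was mixed. Tcf4, an E protein known from plasmacytoid dendritic cells, was 2.01 higher, with MP cells at 5.57, 4.77, 4.13, 4.21 and 3.67 and Mono at 0, 2.49 and 6.72. All 5 MP cells lay above the Mono median, inside the Mono range. Irf1, an interferon-induced factor, was 1.37 higher, with 3 of 5 MP cells above 0. Of the 10 members compared, 2 were higher and 4 lower (median -0.79), while Irf4 and Relb were at 0 in all 29 cells.

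**Figure D1:**
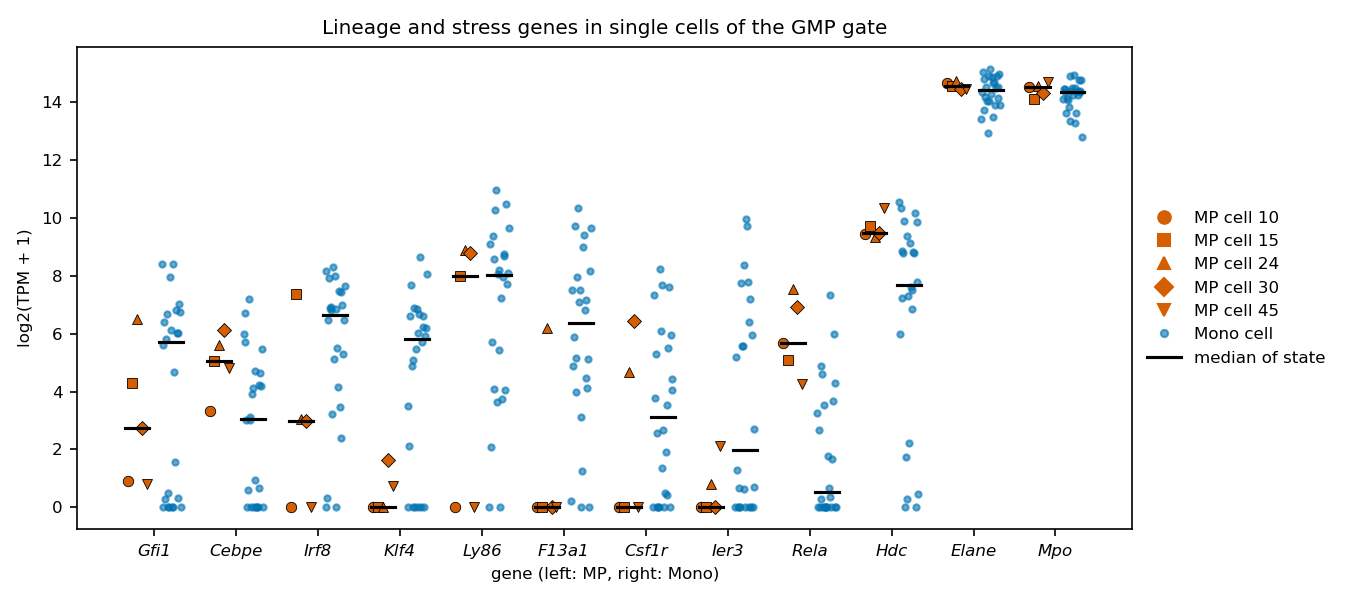
Level of 12 genes in single cells, log2(TPM + 1) on the vertical axis; for each gene the left column holds the 5 MP cells (orange, 1 symbol per cell) and the right column the 24 Mono cells (blue), with a black bar at each median. MP cells 10 and 45 lie at 0 for Irf8, Ly86, F13a1 and Csf1r, while all 29 cells lie above 12 for Elane and Mpo.

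Effector and surface genes of monocytes were among the lower members too. F13a1, the A subunit of coagulation factor XIII and a gene of early monocytes, had the most negative difference among genes detected in 60% or more of the Mono cells, at 0, 0, 6.20, 0 and 0, against 0, 6.36 and 10.35 in Mono. Only MP cell 24 held it (20%, interval 0.505% to 71.6%), and 22 of 24 Mono cells did. The means differed by -4.54, or -5.78 without that cell. Psap, which encodes the precursor of lysosomal saposins, was lower by 2.21, and its 5 MP cells did not pass 1.07. Ly86, a partner of the receptor CD180, was at 0, 7.99, 8.88, 8.80 and 0, a split rather than a shift: the 3 cells that held it stood beside the Mono median of 8.02 or above it. Csf1r, the receptor for the macrophage growth factor M-CSF, was above 0 in MP cells 24 and 30 alone, at 4.69 and 6.43, with a Mono median of 3.11.

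Over the whole monocyte list, 18 of 22 members were compared, 0 were higher and 11 lower, with a median of -1.21. Of the 14 that passed in both states, 8 (57.1%, against 10.4% of all genes) were lower. The other lower members were the lipopolysaccharide co-receptor Cd14 (-1.66), lysozyme Lyz2 (-1.52), the lectin Lgals3 (-1.23) and the surface protein Ly6c2 (-1.19), together with the pore-forming Mpeg1, which was at 0 in all 5 MP cells and above 0 in 12 of 24 Mono cells. The chemokine receptor Ccr2, which monocytes need to leave the marrow, did not differ by the size rule (0.03), nor did the lectin Clec12a (0.26) or Ms4a3 (0.45), a gene of granulocyte-monocyte progenitors. The list median moved to -0.63 without MP cell 10 and to -0.74 without MP cell 45. Fcgr1, an Fc receptor of mature monocytes and macrophages, was at 0 in all 29 cells.

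The 5 MP cells were not alike in these genes. MP cells 10 and 45 had 0 of the 4 genes Irf8, Ly86, F13a1 and Csf1r above 0, while MP cells 15, 24 and 30 had 2, 4 and 3. Every Mono cell had at least 1 of them, and 16 of 24 had all 4. Mono cells 1 and 33 had F13a1 alone, at 0.21 and 1.24, the first of these below 1 TPM. The mean level over the monocyte list, used below as a list score, was 2.52, 4.33, 4.65, 4.12 and 2.32 in MP cells 10 to 45, against 2.32, 5.04 and 7.49 in Mono. All 5 lay below the Mono median and 1 lay below the lowest Mono cell, which was itself level with it to 2 decimals. These 4 genes were picked for this description after their values were seen. MP cells 10 and 45 also had the fewest genes above 0 of the 5 (4985 and 5618), and the part of depth in the split was not tested.

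Gfi1 itself did not pass the size rule on the difference of means, but its size turned on the setting. It stood at 0.92, 4.28, 6.51, 2.74 and 0.81 in MP, against 0, 5.72 and 8.42 in Mono, and the means differed by -0.92 (3.05 ± 2.41 against 3.98 ± 3.32). The transcript was above 0 in 5 of 5 MP cells and 18 of 24 Mono cells. MP cell 24 alone passed the Mono median, and MP cells 10 and 45 were below 1 TPM. Above a level of 1 TPM, 3 of 5 MP cells held Gfi1 and Irf8 together and the other 2 held neither. Among Mono cells 12 of 24 held both (50%, interval 29.1% to 70.9%), 9 held Irf8 alone, 3 held Gfi1 alone and 0 held neither. Without MP cell 24 the difference in Gfi1 was -1.79, and without MP cell 45 it was -0.36. As median over cells it was -2.97, and as log2 of the mean TPM -1.64. Against the 10 Mono cells nearest in genes detected it was -2.20, and with a pseudocount of 0.1 TPM it was -0.30. In the Gran-1 cells of the gate the mean was 6.10 and in cMoP 0.68.

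Known targets of GFI1 were listed from general knowledge, with earlier results of these data known. They were within the size rule for 12 of 17 members compared, with 1 higher and 4 lower (median -0.26). Of the 15 that passed in both states, 26.7% were lower, against 10.4% of all genes. The list score was 2.83, 3.39, 3.72, 3.31 and 2.60 in MP, against 2.99, 3.58 and 4.57 in Mono, so 4 of 5 MP cells lay below the Mono median and MP cells 10 and 45 below every Mono cell. The list median was -0.71 without MP cell 24 and -1.32 as log2 of the mean TPM, a setting that moved the median of all genes from 0.12 to -0.19. The lower ones were Klf4, Irf8, Cebpa and Csf1r, already members of the monocyte lists except Cebpa. Klf4 and Irf8 were also markers named with the comparison, so the list adds little to them. Among the partners with which GFI1 represses genes, the histone deacetylase Hdac3 was 1.66 higher and Rcor1 (CoREST) was at 0 in all 5 MP cells and above 0 in 13 of 24 Mono cells. Zbtb17 (MIZ1), to which GFI1 binds at some promoters, was lower by 1.08. The remaining 7 of the 10 compared did not differ by the size rule.

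Granulocyte factors differed in both directions, also within the C/EBP family. Cebpe, which encodes C/EBPε, was 2.15 higher, at 3.33, 5.07, 5.61, 6.12 and 4.81 in MP against 0, 3.06 and 7.20 in Mono. All 5 MP cells were above the Mono median, and 2 of 24 Mono cells were above the highest of them. Cebpd was lower by 2.24, Cebpa by 1.15 and Cebpb by 1.14, and the highest MP value among these 3 was 0.60. Cebpg, a further member of the family, differed by -0.14. Per3, a circadian clock gene, was 1.74 higher with 5 of 5 MP cells above 0, and Trib1, which promotes degradation of C/EBPα, was 1.97 higher on 2 of 5 cells. Of 12 members 4 were higher and 4 lower, with a median of 0.11. Taken as log2 of the mean TPM, the median of this list was -1.07, so no direction is given for it.

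Primary granule genes were as abundant in MP as in Mono. Elane, neutrophil elastase, stood at 14.67, 14.57, 14.72, 14.45 and 14.45 in MP, against 12.94, 14.42 and 15.16 in Mono, and Mpo, myeloperoxidase, differed by 0.25. Of 17 members 14 did not differ by the size rule, among them Prtn3 (-0.27) and Ctsg (-0.11), which encode proteinase 3 and cathepsin G. The exceptions were Fcnb, a ficolin, lower by 1.70, Igsf6, 2.02 higher, and Hdc. Hdc encodes histidine decarboxylase, the enzyme that makes histamine, and its MP cells stood at 9.44, 9.74, 9.35, 9.48 and 10.35 against 0, 7.70 and 10.57 in Mono, a difference of 3.02. Its MP cells lay close together while the Mono cells ran from 0 upward. The genes of later granules ranged widely in level. Ltf, Camp and Ngp were low in both states, with MP means of 0.51, 2.5 and 2.72 against 0.56, 2.49 and 2.42. S100a8 had means of 5.64 in MP and 6.55 in Mono. Of 15 members compared, 13 did not differ by the size rule. The 2 higher were Anxa1 (10.8 against 9.27) and 1100001G20Rik (5.43 against 3.46).

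Of the 14 cytokine and chemokine receptors compared, 5 were higher and 4 lower. Csf3r, the receptor for the granulocyte factor G-CSF, was 1.12 higher in MP, with cells at 6.65, 6.44, 1.75, 5.18 and 4.89 against a Mono median of 4.25. The receptor genes for M-CSF (Csf1r, -1.07) and GM-CSF (Csf2ra, -1.03) were lower, and Csf2rb2 was at 0 in all 5 MP cells and above 0 in 12 of 24 Mono cells. The shared chain Csf2rb differed by 0.48. Outside this family, Cxcr4, which holds progenitors in the marrow, was 1.46 higher and above 0 in all 5 MP cells, the transforming growth factor receptor Tgfbr1 was 1.71 higher, and the interferon receptor chain Ifnar1 was lower by 1.26.

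Genes of earlier and of other lineages were sparse. Cd27, a costimulatory receptor of progenitors, was 3.12 higher, at 7.48, 7.61, 0, 0 and 8.74 in MP, with 9 of 24 Mono cells above 0. Gata2, a factor of stem cells, basophils and mast cells, was 2.18 higher, at 4.67, 0.65, 3.19, 0 and 5.81 in MP, with 5 of 24 Mono cells above 0. Both were high in MP cells 10 and 45, but Cd27 was as high in MP cell 15, the MP cell with the most Irf8. Of 13 stem and multipotent progenitor genes compared, 3 were higher and 2 lower (median 0.49, and 0.05 without MP cell 45), Cd34 and Kit did not differ by the size rule, and Hlf, Mecom and Procr were at 0 in all 5 MP cells.

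Markers of cell types that the gate could also hold were looked at in the same cells. Of the dendritic list, 9 of 15 members, the invariant chain Cd74, H2-Aa and Siglech among them, were at 0 in all 5 MP cells. None of these 9 reached the detection rule in Mono, and 8 of the 15 members of the list were at 0 in all 24 Mono cells. Of its 6 members compared 3 were higher, Flt3 (1.16), Bst2 (1.73) and H2-Ab1 (1.87), and H2-DMa was lower by 1.87. Of 5 basophil and mast cell genes compared, 2 were higher, Hdc and Gata2, and Ifitm1 was lower by 2.41. By list score 5 of 5 MP cells lay above the Mono median of 2.04. The markers Ms4a2, Prss34 and Fcer1a were at 0 in all 5 MP cells and did not reach the detection rule in Mono, so the high Hdc and Gata2 stood without them. Mcpt8, a basophil protease, was above 0 in MP cell 15 alone. The erythroid genes Gata1, Klf1, Epor and Hba-a1 and the platelet genes Pf4, Gp9 and Vwf were at 0 in all 5 MP cells. So were the eosinophil genes Epx and Prg2, and Cd79a, Ebf1 and Cd3e of lymphocytes. Here 0 of 5 allows a share of up to 60% if 3 counts of the total are taken as the limit, and 52.2% by the exact Clopper-Pearson interval. Other members of these lists were not silent. Cd79b, of the B cell list, was above 0 in 3 of 5 MP cells, at 7.55, 0.71 and 7.01, and in 12 of 24 Mono cells. Siglec5, of the eosinophil list, was 1.89 higher, above 0 in 4 of 5 MP and 11 of 24 Mono cells. Il5ra of that list was above 0 in 2 of 5 MP cells. Tfrc, of the erythroid list, was 1.07 higher, and Fli1, of the platelet list, differed by 0.37.

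**Figure D2:**
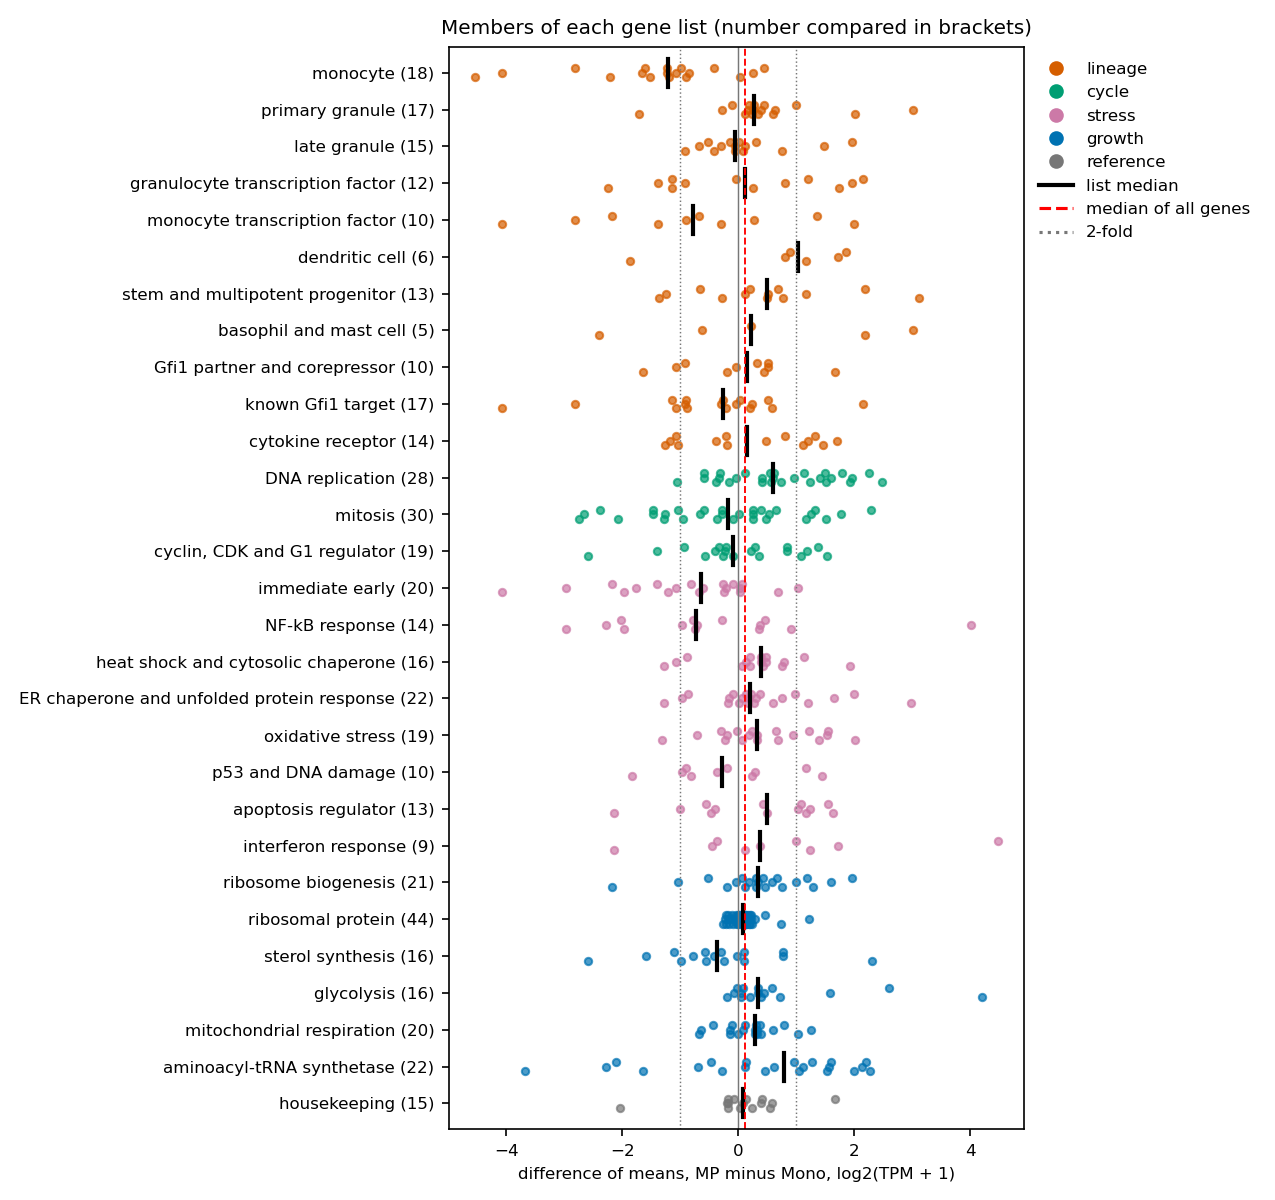
Difference of means, MP minus Mono on the log2(TPM + 1) scale, for every compared member of each gene list (1 point per gene, coloured by theme, number of members in brackets). Black bars are list medians, the dashed red line is the median of all genes (0.12) and the dotted lines mark 2-fold. The monocyte list lies left of 0 for 15 of 18 members, and ribosomal protein genes are bunched near 0.

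Cell cycle genes did not move as a block. Genes of DNA synthesis leaned higher in MP: of 28 compared, 11 (39.3%) were higher and 1 (3.57%) lower, with a median of 0.60. All 28 passed in both states, where 23.3% of all genes were higher and 10.4% lower. By list score, 3 of 5 MP cells lay above the Mono median. The higher members were enzymes and loaders of the replication fork. They included Gins1, a subunit of the replicative helicase (2.48), Rfc4 and Rfc3 of the clamp loader (2.25 and 1.78), DNA ligase Lig1 (1.97), the flap endonuclease Fen1 (1.60), the primase Prim1 (1.52), and the polymerase subunits Pole (1.5), Pola1 (1.41) and Pold1 (1.24). Of the 6 Mcm genes of the helicase ring, Mcm2 was 1.92 higher, Mcm6 was lower by 1.05, and the other 4 did not differ by the size rule. Pcna (0.56) and the ribonucleotide reductase genes Rrm1 (-0.32) and Rrm2 (0.41) also lay inside it.

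Lig1 showed the form that these differences took. Its MP cells stood at 5.12, 6.61, 6.85, 6.20 and 4.35, against 0.56, 4.42 and 8.04 in Mono, all above 0 in both states. The 5 MP cells sat in the upper part of a wide Mono range, and 4 of them passed its median. Rfc4 stood at 4.93, 8.60, 8.78, 8.68 and 7.83 against 0, 6.43 and 9.36. The list median was 1.26 without MP cell 10, 1.06 without MP cell 45 and 0.29 without MP cell 15. Against the 10 Mono cells nearest in genes detected it was 0.28, and as log2 of the mean TPM it was 0.14.

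Mitotic genes were mixed. Of 30 compared, 6 were higher and 9 lower, with a median of -0.18. Those lower included the polo kinase Plk1 (-2.74), the centromeric histone Cenpa (-2.66), the anaphase activator Cdc20 (-2.38), the checkpoint genes Mad2l1 (-2.07) and Bub1b (-1.47), the kinase Aurka (-1.46) and the proliferation marker Mki67 (-1.27). Plk1 stood at 0.34 in MP cell 10 and 0 in the other 4, with 12 of 24 Mono cells above 0 and a highest of 9.86. Those higher were Nusap1 (2.29), Birc5 (1.77), the topoisomerase Top2a (1.52), Aurkb (1.32), Kif20a (1.26) and Bub3 (1.17). Birc5, Aurkb and Cdca8 encode subunits of 1 complex, the chromosomal passenger, and the third of them was lower by 1.03. The median was 0.30 without MP cell 10, 0.03 against the 10 matched Mono cells and -0.54 without MP cell 30, so no direction is given for the list.

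The scores of the cycle lists were also read cell by cell, as levels of transcript, and no phase of the cycle was assigned. DNA replication scores were 3.55, 6.79, 6.63, 6.64 and 4.65 in MP cells 10, 15, 24, 30 and 45, against 3.10, 4.72 and 6.79 in Mono. MP cells 15, 24 and 30 were thus at the top of the Mono range, and they are the cells that held Irf8 and Ly86. They were also the MP cells with the most genes above 0 (6244, 5850 and 5747), and the part of depth in this was not tested. Mitosis scores were 0.93, 4.15, 3.40, 3.5 and 4.07, against 0.57, 3.34 and 6.69 in Mono. MP cell 10 was low in both, with 11 of 30 mitotic members above 0 where the other MP cells had 21 to 25. It also had the fewest genes above 0 of the 5 (4985), and the part of depth in its scores was not tested.

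**Figure D3:**
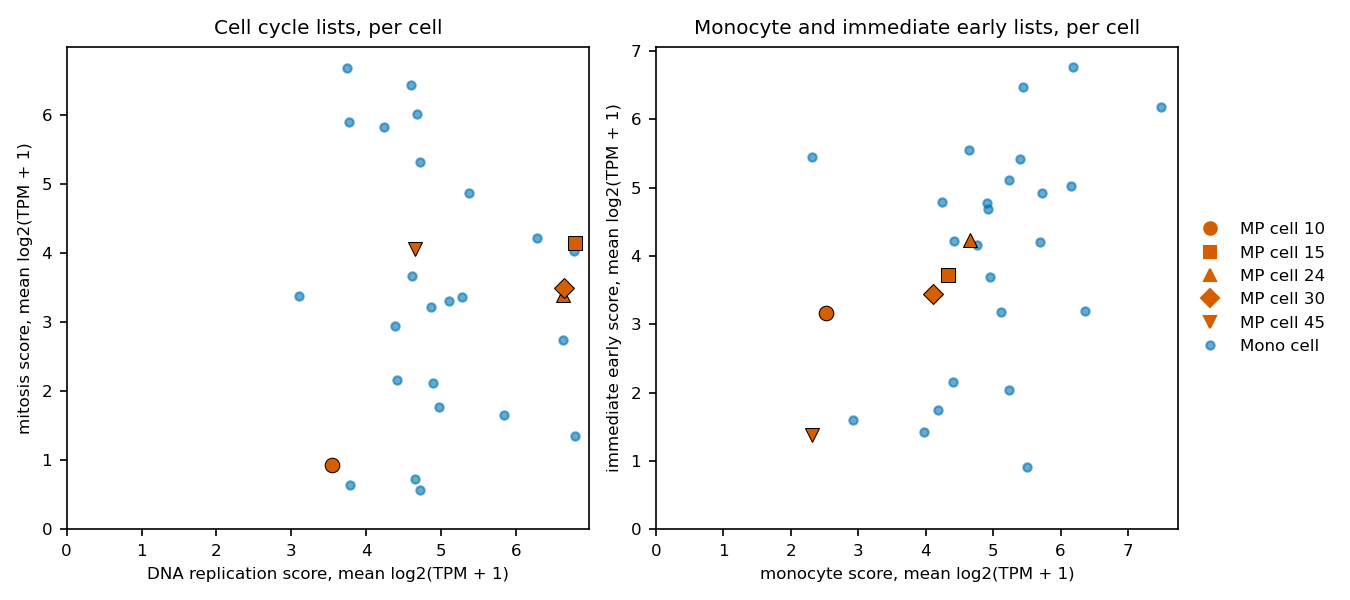
List scores (mean log2(TPM + 1) over the members compared) of single cells, with MP in orange (1 symbol per cell) and Mono in blue: DNA replication against mitosis on the left, monocyte against immediate early on the right. MP cells 15, 24 and 30 lie at the right edge of the DNA replication axis (6.63 to 6.79), and MP cells 10 and 45 lie at the left edge of the monocyte axis (2.52 and 2.32).

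Regulators of the cell cycle entry differed in single genes. Ccne1, cyclin E, was 1.52 higher on 2 of 5 MP cells, and its kinase Cdk2 was 1.38 higher and above 0 in all 29 cells. Rb1, the retinoblastoma protein that restrains entry, was 1.19 higher and Cdk6 1.08 higher. Cdkn2d, an inhibitor of the cyclin D kinases, was at 0 in all 5 MP cells and above 0 in 15 of 24 Mono cells, and the antiproliferative Btg2 was lower by 1.39. Cdk4, Ccnd2, Ccnd3 and Myc did not differ by the size rule, and over the 19 members compared 4 were higher and 2 lower (median -0.09).

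Among stress genes, 8 of 20 immediate early genes were lower in MP, against 2 of 16 cytosolic chaperones. Immediate early genes are those that growth factors and stress switch on within minutes, before any new protein is made. Of 20 compared, 1 was higher and 8 (40%) lower, with a median of -0.64. Over the 17 that passed in both states, 6 (35.3%) were lower and the median was -0.26. Ier3, an early-response survival gene, stood at 0, 0, 0.82, 0 and 2.11 in MP, against 0, 1.99 and 9.96 in Mono. It was above 0 in 2 of 5 MP cells (40%, interval 5.27% to 85.3%) and 16 of 24 Mono cells (66.7%, 44.7% to 84.4%), and 12 of 24 Mono cells lay above the highest MP cell. The means differed by -2.98 (0.59 ± 0.92 against 3.56 ± 3.66). The cMoP, Multi-Lin and Gran-1 cells of the gate had higher means of Ier3 than either, at 5.98, 8.33 and 5.36.

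The core AP-1 and EGR genes were not among the lower ones. Fos differed by -0.10, Jun by -0.25, Egr1 by 0.04, Ier2 by 0.07 and Dusp1 by -0.26, and their means were 4.92 or above in both states. The lower members, besides Klf4, Klf2 and Ier3, were the RNA-destabilising Zfp36 (-1.76), Btg2 (-1.39), Fosl2 (-1.21) and the phosphatase Dusp2 (-1.07), together with Atf3, at 0 in all 5 MP cells and above 0 in 9 of 24 Mono cells. Klf4 and Klf2 are also on the monocyte factor list, so these lists share members. The immediate early score was 3.16, 3.72, 4.23, 3.44 and 1.37 in MP, all 5 below the Mono median of 4.46 and inside the Mono range of 0.91 to 6.77. The list median was -0.40 without MP cell 45.

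Single genes of the NF-κB response differed in both directions. Rela, the p65 subunit, stood at 5.68, 5.08, 7.53, 6.92 and 4.26 in MP, against 0, 0.51 and 7.32 in Mono. All 5 MP cells held it, 14 of 24 Mono cells did, and 19 of 24 Mono cells lay below the lowest MP cell. The means differed by 4.02 (5.89 ± 1.33 against 1.87 ± 2.27). Of genes known as targets of the factor, the inhibitor Nfkbia was lower by 2.29, with 3 of 5 MP and 20 of 24 Mono cells above 0, and the chemokine Ccl3 by 1.97, held by MP cell 24 alone. Cxcl2, a neutrophil chemokine, was at 0 in all 5 MP cells and above 0 in 9 of 24 Mono cells. Nfkb1 differed by 0.37, Relb was at 0 throughout, and over 14 members 1 was higher and 4 lower (median -0.73). The filter bore on this list: 7 of the 14 passed through Mono alone, and over the other 7 the median was 0.37, so only the single genes are described.

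The sequences before the start sites of these lower genes were read from RefSeq (GRCm38.p6), 250 bases each, to show what motif letters they hold. Irf8 and Ier3 are shown as markers named with the comparison, Nfkbia and Cxcl2 as genes of the NF-κB list. Capitals mark AATC, the core of the GFI1 motif, on either strand (GATT on the strand shown) in Irf8 and Ier3, and an NF-κB motif (GGG, 2 free bases, TT, 1 free base, CC) on either strand in Nfkbia and Cxcl2. The core gave 3 matches before Irf8 (chr8:120736108-120736357, plus strand) and 2 before Ier3 (chr17:35821463-35821712, plus strand). The NF-κB letters gave 1 match before Nfkbia (chr12:55492648-55492897, minus strand), 2 before Cxcl2 (chr5:90903649-90903898, plus strand) and 0 before Ier3.
Irf8: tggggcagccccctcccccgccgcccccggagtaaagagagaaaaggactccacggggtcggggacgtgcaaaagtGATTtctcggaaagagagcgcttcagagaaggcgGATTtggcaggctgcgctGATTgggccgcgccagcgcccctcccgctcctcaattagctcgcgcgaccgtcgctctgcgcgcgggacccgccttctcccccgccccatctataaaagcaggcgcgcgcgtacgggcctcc
Ier3: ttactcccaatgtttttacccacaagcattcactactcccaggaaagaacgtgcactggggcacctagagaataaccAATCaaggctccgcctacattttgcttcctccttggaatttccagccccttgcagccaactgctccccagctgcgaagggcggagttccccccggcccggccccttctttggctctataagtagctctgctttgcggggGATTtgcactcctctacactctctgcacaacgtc
Nfkbia: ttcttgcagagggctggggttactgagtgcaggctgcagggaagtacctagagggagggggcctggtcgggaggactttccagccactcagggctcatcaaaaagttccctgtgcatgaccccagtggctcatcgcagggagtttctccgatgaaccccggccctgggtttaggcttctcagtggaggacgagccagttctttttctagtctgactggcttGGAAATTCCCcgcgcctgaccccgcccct
Cxcl2: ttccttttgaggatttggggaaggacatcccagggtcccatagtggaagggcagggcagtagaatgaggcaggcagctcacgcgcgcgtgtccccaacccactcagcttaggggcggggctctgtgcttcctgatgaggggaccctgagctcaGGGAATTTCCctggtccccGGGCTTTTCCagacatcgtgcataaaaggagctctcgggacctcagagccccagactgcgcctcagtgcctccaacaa

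The AATC core is in 69.8% of 27025 promoter windows of this length and the NF-κB letters are in 4.0%, so a core match does not single out a gene. A match is a description of letters, not a bound site. Windows of 11 genes, each at the first start site listed, were searched for 3 motifs, the third being the E2F letters TTTCGCGC (0.255% of windows), all chosen after the expression values were seen. Klf4, the gene with the largest difference of the 4 markers, held 0 matches to any of the 3, and the display for Ier3 was set to AATC after the NF-κB search there gave 0.

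Protein-folding and oxidative stress genes stood near the background. Of 22 endoplasmic reticulum genes compared, 4 were higher and 1 lower (median 0.21). Pdia4, a disulfide isomerase, was 2.98 higher, at 8.90, 8.47, 8.15, 8.98 and 8.70 against 0, 6.84 and 9.64 in Mono, so its MP cells lay above the Mono median and close together. The co-chaperone Dnajc3 was 2.0 higher, while Ddit3, Trib3 and Asns, which report a strong unfolded protein response, were at 0 in all 5 MP cells. Of these 3, 1 passed the detection rule, through Mono alone. Cytosolic chaperones had 2 higher and 2 lower of 16 (median 0.39), with the inducible Hspa1a lower by 1.29. Of 19 oxidative stress genes 5 were higher, among them catalase Cat (1.55) and the peroxiredoxin Prdx2 (1.40), and the 5 MP scores (6.87 to 7.52) lay above the Mono median of 6.80. Hmox1, Nqo1 and Srxn1, the classical induced genes of that response, were at 0 in all 5 MP cells.

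Among damage and death genes, apoptosis regulators leaned higher by count, and p53 genes did not. Of 10 p53 genes compared, 2 were higher and 1 lower, and Cdkn1a and Bbc3 were at 0 in all 5 MP cells. Of 13 apoptosis regulators, 6 (46.2%) were higher and 2 lower (median 0.49, and -0.08 to 1.06 over the alternatives). Of the 12 that passed in both states 50% were higher, against 23.3% of all genes. By list score 2 of 5 MP cells lay above the Mono median. The higher ones were of opposite roles, the survival genes Bcl2 (1.64) and Mcl1 (1.03) beside the death genes Casp8 (1.55), Casp9 (1.23), Bax (1.18) and Bad (1.09). The most changed was Bid, a relay of death receptor signals, lower by 2.14. Interferon genes were few: of 9 compared 3 (33.3%, against 20.9% of all genes) were higher, led by Ifi27 (4.49), and 1 was lower. The lower one was Irf9 (-2.14), at 0 in all 5 MP cells and above 0 in 9 of 24 Mono cells. Isg15, Ifit1, Ifit3, Irf7 and Mx1 were also at 0 in all 5 MP cells. Of the 21 listed, 10 were at 0 in all 5 MP cells and 8 in all 24 Mono cells.

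Among growth genes, tRNA synthetases leaned higher, glycolysis was near the background by count and ribosomal proteins were level. Of 44 ribosomal protein genes, 43 did not differ by the size rule (median 0.08). The glycolysis score was 6.69, 7.44, 7.71, 7.72 and 7.39 in MP against 5.51, 6.69 and 7.48 in Mono, with all 5 MP cells above the Mono median and 2 above the highest Mono cell. By count, 3 of its 16 genes (18.8%) were higher: the hexokinase Hk2 (1.59) and the phosphofructokinases Pfkl (2.60) and Pfkm (4.21). Of 22 aminoacyl-tRNA synthetases 10 (45.5%) were higher and 4 lower (median 0.79), and of the 19 that passed in both states 10 (52.6%) were higher. The list median was 0.29 as median over cells and 0.20 as log2 of the mean TPM. Yars, Tars and Farsb were 2.21, 2.13 and 2.27 higher, while Cars and the mitochondrial Fars2 were at 0 in all 5 MP cells. In sterol synthesis 1 of 16 was higher and 3 lower, with Fdps lower by 2.59.

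Housekeeping genes served as a reference for single-cell scatter. Of 15, 13 did not differ by the size rule (median 0.08), but Polr2a, the large subunit of RNA polymerase II, was lower by 2.04 and the TATA-binding protein Tbp was 1.67 higher. Differences near 2 in single genes of moderate level thus also occurred in genes that every cell uses.

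The extremes of the comparison lay mostly outside the lineage lists. The highest were 2210013O21Rik (5.35), Tmem216 (5.24), Med10 (5.0), Ifi27 (4.49), Carkd (4.48), Tmem176a (4.37), Pfkm (4.21), Jmjd6 (4.18), Ccbl2 (4.16), Tcn2 (4.10), Poll (4.05) and Med6 (4.04), followed just outside by Lpcat3 (4.03). They have no role in common by their names: Med10 and Med6 are subunits of the Mediator complex, Tcn2 carries vitamin B12 and Poll is a repair polymerase. Med10 stood at 6.36, 6.98, 7.66, 6.73 and 8.32 in MP against 0, 0 and 8.12 in Mono, with 11 of 24 Mono cells above 0. Tcn2 stood at 8.35, 8.29, 8.52, 8.09 and 7.81 against 0, 4.29 and 9.34, and 1 Mono cell lay above its highest MP cell. Of the 12 genes, 9 were above 0 in all 5 MP cells, while Pfkm, Poll and Ccbl2 were each at 0 in 1 of them.

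At the other end stood F13a1 (-4.54), Klf4 (-4.08), Unc93b1 (-3.85), Srp68 (-3.79), Surf1 (-3.53), Mien1 (-3.5), Thoc6 (-3.5), Ubl7 (-3.43), Kxd1 (-3.41) and Coq9 (-3.39), with Vrk3 and Fars2, which were at 0 in all 5 MP cells and above 0 in 20 and 17 of 24 Mono cells. Tmed1 (-3.35) came next. Unc93b1, which carries Toll-like receptors to endosomes, stood at 4.75, 5.49, 5.14, 1.55 and 0 in MP against 0, 7.87 and 10.07, and 21 of 24 Mono cells lay above the highest MP cell. With it, F13a1 and Klf4 are the myeloid genes of this end. The kinase gene Vrk3, with Flcn and Afg3l1, made up the 3 genes at 0 in every MP cell and above 0 in at least 18 of 24 Mono cells. The reverse, 5 of 5 MP cells and 0 of 24 Mono cells, was met by 0 genes.

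**Figure D4:**
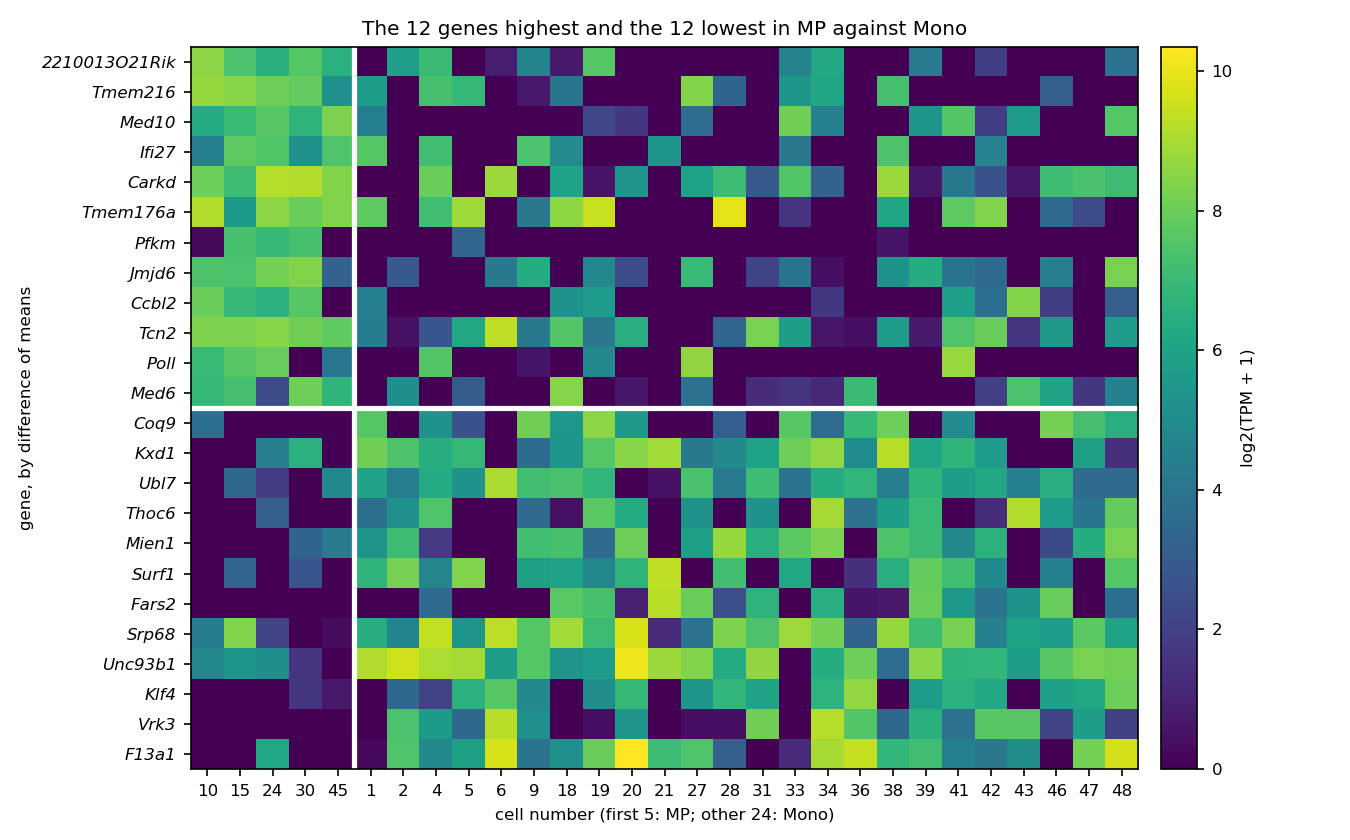
Level of the 12 genes highest and the 12 lowest in MP against Mono, log2(TPM + 1) by colour; columns are the 5 MP cells (left of the white line) and the 24 Mono cells, rows are genes ordered by difference of means. These genes were ranked on the values shown; 9 of the 12 upper rows are above 0 in all 5 MP cells, and each lower row still has a range of levels in Mono.

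Across 7550 genes, MP cells were no farther from Mono cells than Mono cells were from one another. The median Pearson r between 2 cells, across genes, was 0.544 for the 10 MP pairs, 0.530 for MP with Mono and 0.516 for Mono pairs. By median r, 22 of 24 Mono cells were nearer to the MP cells than to any other state, and 0 were nearest to other Mono cells. Mono cells ran down to 3700 genes above 0 and MP cells to 4985, and the part of this in r was not tested. The median r of an MP cell was 0.514 to 0.538 with Gran-1, 0.501 to 0.536 with cMoP and 0.403 to 0.420 with Multi-Lin. Multi-Lin also had the fewest genes above 0 of these states (median 3634), and its part in the low r was not tested. Genes are not independent replicates, so r is a description.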

How the data were processed

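Single-cell RNA-seq values for 92 cells in 2 sort gates were used as deposited. Per the submitters' processing notes the authors used Bowtie2, RSEM and the genome build mm9; their versions and filters, and the reads per cell, are not given in the sources at hand. Values are log2(TPM + 1), which the authors deposited in 1 table, and TPM was recovered from them only for the alternatives. Cells were placed by gate from their titles and by state from the deposited state table.

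Genes detected in 25% or more of the MP cells or of the Mono cells were compared. The difference of mean log2(TPM + 1) was described against a size of 1 (2-fold). No test was run, because the states come from 1 gate with no animal named. Shares carry exact Clopper-Pearson 95% intervals. Computation used Python 3.11.15, numpy 2.4.6, pandas 2.3.3 and scipy 1.17.1. The difference of means was checked for size and sign on known shifts added to values drawn from the Mono cells. How many unshifted genes pass the size rule was not checked.

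Genes named in the text are Gfi1, Irf8, Ier3 and Klf4, the 12 highest and 12 lowest differences among genes detected in 60% or more of whichever state was higher, and up to 4 members of each of 34 lists with the largest difference, with values for the monocyte and granulocyte factors. Other list members were named after their values were seen, and the values of a few are not reported here. The members and the lists were chosen with earlier results of these data known. The 5 lists followed most closely, the count of genes with all 5 MP cells on 1 side of the Mono median, the cut-offs for presence and absence, the results searched for a cell that stands apart, the promoter motifs and the split by members that passed in both states were chosen after the values were seen. Promoter windows are from RefSeq on GRCm38.p6, and no coordinate of the expression build was used.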

Additional observations from a re-analysis of the deposited data

Results flagged for a closer look

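In 8 of 57 results looked at over the 5 MP cells (27 marker and extreme genes, 29 list scores and the number of genes above 0), 1 cell lay apart from the other 4 by more than Dixon's 95% limit of 0.71 of the range. That limit is set to pass about 1 in 20 for normally distributed values. A gene with 4 cells at 0 and 1 above 0 always passes it, so 1 in 20 is not a rate to set against the 8. The extreme genes were ranked on these same cells.

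Among the genes low in MP, a single cell held the transcript and the other 4 were at 0. This was so for F13a1, at 6.197 in MP cell 24, for Thoc6, at 3.142 in the same cell, and for Coq9, at 3.794 in MP cell 10. Among the genes high in MP, a single cell was low. Ccbl2 was at 0 in MP cell 45 with the next cell at 6.605, Jmjd6 at 3.271 in MP cell 45 with the next at 7.416, Tmem216 at 5.213 in MP cell 45 with the next at 7.843, and Med6 at 2.37 in MP cell 24 with the next at 6.75.

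The mitosis score of MP cell 10 was 0.9309, with the next cell at 3.396 and the highest at 4.154. That cell had 11 of 30 mitotic members above 0 and 4985 genes above 0, the fewest of the 5, and the part of depth in its score was not tested.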

How the results depend on the processing

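Depth per cell is unknown, and every MP value rests on 5 cells of 1 gate. No paired analysis was possible because cell numbers only name cells and no result comes from a test.

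The count of genes higher in MP (1787) was 638 with a pseudocount of 10 TPM and 1151 among genes above 0 in at least 50% of the 29 cells, and 1808 to 2120 when each MP cell was left out in turn. The count lower (1124) was 1799 with a pseudocount of 0.1 TPM, 291 with 10 TPM, 707 under the 50% rule, 2563 as log2 of the mean TPM, and 1178 to 1454 with each MP cell left out. Genes without overlap (0) numbered 3 against the 10 Mono cells matched on genes detected and 0 to 1 with each MP cell left out. The primary granule median (0.28) was 0.17 as log2 of the mean TPM, 0.14 as median over cells, 0.12 with equal medians of widely detected genes, and 0.28 to 0.37 with each MP cell left out.

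The median of all genes moved from 0.12 to -0.19 as log2 of the mean TPM, so list medians under that setting are read against it: -1.48 for monocyte, 0.14 for DNA replication, -0.27 for mitosis and -1.11 for immediate early genes. The cause of these moves was not tested.

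Of 116 named genes at least 2-fold apart, 96 kept their sign in all of the 14 alternatives that gave a value and 39 stayed at least 2-fold apart. The signs turned as log2 of the mean TPM for Bax (-0.16), Ero1l (-0.053), Ifi47 (-0.31) and Tnfrsf1a (-0.032). They turned as median over cells for Cd48 (0.12), Idi1 (0.33) and Prdx3 (-0.35), for Bax against the matched Mono cells (-0.077), and for Cd48 without MP cell 10 (0.43, in a range of -1.91 to 0.43 with each MP cell left out).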
